A study of Mus musculus with 24 samples.

Results

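Oligodendrocyte precursor cells were examined in single-nucleus RNA-seq libraries from mouse brains, of *Pdgfb* ret/ret mutants and of *Pdgfb* ret/wt controls. Nuclei were chosen by their own counts of unique molecular identifiers (UMIs), the measure of transcripts used throughout. A nucleus had to hold at least 6 UMIs of *Pdgfra*, *Cspg4* and *Vcan* together, with at least 2 of *Pdgfra*. It could hold at most 2 UMIs of *Bmp4* and *Enpp6*, at most 1 of *Mog* and *Mag*, at most 1 of *Rbfox3*, and none of *Aqp4*, *Csf1r*, *Col1a2* or *Dcn*. This rule selected 3715 of the 204925 nuclei kept by the gene number and mitochondrial limits. The deep brain gave 2949 of 124958 nuclei and the cortex 766 of 79967. The 24 libraries came from 12 mice of strain B6.Pdgfbtm3Cbet, with 1 deep brain and 1 cortex library per mouse. The deep brain dissection held pallidum, thalamus, hypothalamus, midbrain and pons, the regions in which vessels calcify, and the cortex dissection held cerebral cortex and hippocampus, where they do not. The 6 mutants were *Pdgfb* ret/ret and all female. The 6 controls were *Pdgfb* ret/wt, so that they carried a ret allele as well, and 5 were female and 1 was male. Mice 1 to 3 of each genotype had reached 5 months of age and mice 4 to 6 were 4 months old and not yet 5. The ret allele is present in every cell of these animals, and no wild-type mouse was among the samples.

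Oligodendrocyte precursor cells are glia that divide throughout adult life and give rise to the myelin-forming oligodendrocytes of the brain. They are known for the receptor PDGFRA and the proteoglycan NG2, which *Cspg4* encodes, and they receive synapses from neurons. PDGF-A acting on PDGFRA drives their division. PDGF-B acts mainly on PDGFRB of pericytes, and the ret allele removes the motif that holds PDGF-B at the vessel wall, so that pericytes are lost in ret/ret mice.

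The markers that were not part of the rule were present. *Lhfpl3*, a membrane protein gene used as a precursor marker, had at least 1 UMI in 99.8% of the deep brain precursor nuclei after each was thinned to 2000 UMIs, against 8.27% of mature oligodendrocytes, 50.8% of neurons and 26.0% of astrocytes. *Olig1*, a transcription factor of the whole oligodendrocyte lineage, was seen in 43.8% of precursor nuclei, 22.6% of mature oligodendrocytes, 1.02% of neurons and 7.69% of astrocytes. Of 5018 nuclei that passed the *Pdgfra*, *Cspg4* and *Vcan* thresholds, 1303 were removed by the limits on other genes. Neuronal *Rbfox3* removed 430, astrocytic *Aqp4* 389, the myelin genes *Mog* and *Mag* 387, the microglial *Csf1r* 222, the fibroblast genes *Col1a2* and *Dcn* 123, and *Bmp4* with *Enpp6* 36, with overlap between these. The 59 nuclei just inside the threshold, with 6 UMIs of the chosen markers, had pooled levels of 5333 CPM for *Lhfpl3* and 196 for *Olig1*. The 32 nuclei just outside, with 5 such UMIs, had 4570 and 182 CPM, where CPM is a gene's UMIs scaled to a sum of 1000000 over all genes. Pooled over both regions, the markers were lower just outside the threshold than just inside it. In the cortex alone, with 16 nuclei inside and 9 outside, the order was the other way, with 5788 and 6075 CPM for *Lhfpl3* and 149.5 and 160 for *Olig1*. The chosen genes themselves are given as a description. *Pdgfra* had a mean of 1374 ± 70.0 CPM (SD, n = 12 deep brain libraries), *Cspg4* 471 ± 60.8 and *Vcan* 1753 ± 291.

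The deep brain libraries gave 210 to 281 precursor nuclei each, and their precursor nuclei had median depths of 4016 to 5899 UMIs. The cortex libraries gave 12 to 216 precursor nuclei, with median depths of 4002 to 9554 UMIs. In 7 of the 12 cortex libraries, those of control mice 1, 3 and 4 and mutant mice 1 to 4, the median over all kept nuclei was between 804 and 1160.5 UMIs, while the other 5 stood between 4597 and 8054. Only control mouse 5 and mutant mice 5 and 6 gave over 100 precursor nuclei in the cortex, so cortex values of the other mice rest on few nuclei. Summed over its precursor nuclei a library held between 109928 and 1491033 UMIs. Among the precursor barcodes, 867 also occurred among kept nuclei of another library, 22 were precursors in both, and no pair of libraries shared more than 1 precursor barcode. Marker lists of vascular, microglial, ependymal and choroid plexus cells were low in the precursor sums. There the 10 endothelial genes summed to between 0 and 122 CPM and the 12 mural and fibroblast genes to between 0 and 33.1. The 10 microglial genes summed to between 50.4 and 186, and the 8 ependymal and choroid plexus genes to between 4.55 and 163. The 15 neuronal genes summed to between 2667 and 4034 CPM and the 10 astrocyte genes to between 1023 and 1585. In control deep brain the neuronal sum had a mean of 3410 CPM in precursors, 1401 in mature oligodendrocytes and 12542 in neurons. The part of neuronal RNA in the precursor sums was not tested.

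Genes outside the rule were read in the precursors and in the later stages of their lineage. Committed precursors, defined by *Bmp4* and *Enpp6*, numbered 73 in the deep brain and were pooled, whereas mature oligodendrocytes numbered 21120. Levels in this paragraph are CPM in the deep brain, as means over 12 libraries with SD for precursors and mature cells. They describe the classes and were not tested, because each class was chosen by its own transcripts. *Ptprz1*, a receptor phosphatase gene of glial progenitors, stood at 3260 ± 252 CPM in precursors, 987 in committed precursors and 57.2 ± 13.8 in mature cells. The matrix proteoglycan gene *Cspg5* was at 949 ± 112, 42.5 and 50.9 ± 10.4 CPM in the same order. Both were therefore highest before commitment. *Neu4*, which encodes a sialidase, and *Tnr*, which encodes the matrix protein tenascin-R, peaked in committed precursors at 592 and 12436 CPM, with 289 ± 28.8 and 4206 ± 346 CPM in precursors. *Gpr17*, a receptor gene of cells about to differentiate, rested at 326 ± 35.3 CPM in precursors and stood at 2396 CPM in committed precursors and 4.34 ± 1.61 in mature cells. *Fyn*, a kinase gene of early myelination, went from 266 ± 24.97 to 4303 CPM between precursors and committed precursors, and *Bcas1*, a marker of early myelinating cells, from 443 ± 33.2 to 5736. *Myrf*, the transcription factor gene that switches on myelin genes, was at 16.0 ± 4.89, 137 and 207 ± 10.6 CPM. The myelin protein gene *Mobp* was at 16.7 ± 4.67 CPM in precursors, 44.8 in committed precursors and 1611 ± 388 in mature cells. The heat map of marker levels by class shows this order.

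**Figure D1:**
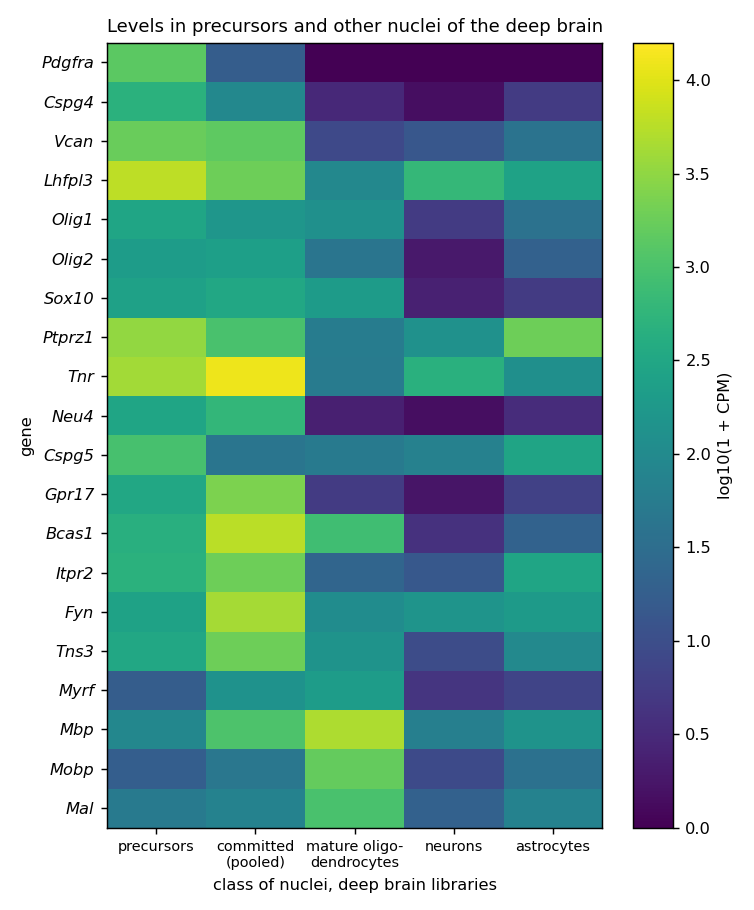
Heat map of log10(1 + CPM) for 20 genes in deep brain nuclei of 5 classes, with precursors, mature oligodendrocytes, neurons and astrocytes as means over 12 libraries and committed precursors pooled from 73 nuclei. *Gpr17*, *Fyn* and *Bcas1* are brightest in committed precursors, while *Mobp* is brightest in mature oligodendrocytes, where it reaches 1611 CPM.

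Genes for channels and receptors were also read in precursors. *Kcnd2*, a potassium channel gene, stood at 4437 ± 317 CPM in precursors against 223 ± 59.6 in mature oligodendrocytes and 3003 ± 482 in neurons. The AMPA receptor subunit gene *Gria4* was at 1477 ± 225 CPM in precursors, 525 ± 73.7 in mature cells and 946 ± 102 in neurons. *Grin2b*, an NMDA receptor subunit gene, was at 82.7 ± 33.7 CPM in precursors and 1365 ± 195 in neurons. *Gria4* thus stood higher in precursors than in neurons, and *Grin2b* lower.

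The difference between genotypes in the share of precursors among kept nuclei lay within the spread of the mice. In the deep brain the control share ran from 2.09% through a median of 2.52% to 2.79%, and the mutant share from 2.03% through 2.32% to 2.59%. The ranges overlapped, and the means were 2.47% ± 0.245 and 2.29% ± 0.221 (SD, n = 6 each). Mutant minus control was -0.183 percentage points (two-sided exact permutation test of the mice, p = 0.197, adjusted p = 0.407 over the 6 genotype tests of shares). It was -0.0403 under a stricter rule for nuclei, -0.387 among kept nuclei with at most 1 UMI of *Rbfox3*, and -0.119 without control mouse 4. The stricter rule allowed no UMI of *Rbfox3*, *Mog*, *Mag*, the microglial *P2ry12* or the endothelial *Cldn5*. Of the neuronal genes *Slc17a7*, *Slc17a6*, *Gad1* and *Gad2* it allowed at most 1 UMI together. In the cortex the control share ran from 0.351% through 1.02% to 1.98% and the mutant share from 0.159% through 0.358% to 2.11%. The cortex means were 1.11% ± 0.758 and 0.812% ± 0.834 (exact permutation p = 0.494, adjusted p = 0.668). Their difference of -0.301 was -0.129 without control mouse 6, -0.560 without mutant mouse 6, and -0.114 under the stricter rule. The 7 cortex libraries with shallow kept nuclei had shares of 0.159% to 0.665% and the other 5 had 1.38% to 2.11%. Among nuclei with at least 3000 UMIs the cortex difference was -0.225 (exact permutation p = 0.541). Intervals of single libraries cover counting error only. For the mutant cortex library with 12 precursor nuclei the exact 95% interval was 0.139% to 0.469%.

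Between regions the share was higher in the deep brain in 6 of 6 control mice and in 6 of 6 mutant mice. The paired differences averaged 1.36 percentage points in controls and 1.48 in mutants. The exact permutation test over 64 sign changes gave p = 0.0312 for each, the smallest it can give, and adjusted p = 0.0938 over the 6 region tests of shares. The adjusted value misses 0.05. Among nuclei with at least 3000 UMIs the difference was 1.20 in controls, with 5 of 6 mice higher in the deep brain, and 1.22 in mutants, with 6 of 6 (exact permutation p = 0.0625 and 0.0312). With every nucleus thinned to 3000 UMIs it was 0.963 and 0.940, with 5 of 6 mice higher in each genotype (exact permutation p = 0.0625 for both). Under the stricter rule for nuclei it was 0.795 and 0.868. Among kept nuclei with at most 1 UMI of *Rbfox3* it was 1.97 and 2.04 (exact permutation p = 0.125 for both), with 4 of 6 mice higher in the deep brain in each genotype and mice 5 and 6 higher in the cortex. The mean difference thus kept its direction under these settings, while its size and the order in single mice did not hold throughout.

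**Figure D2:**
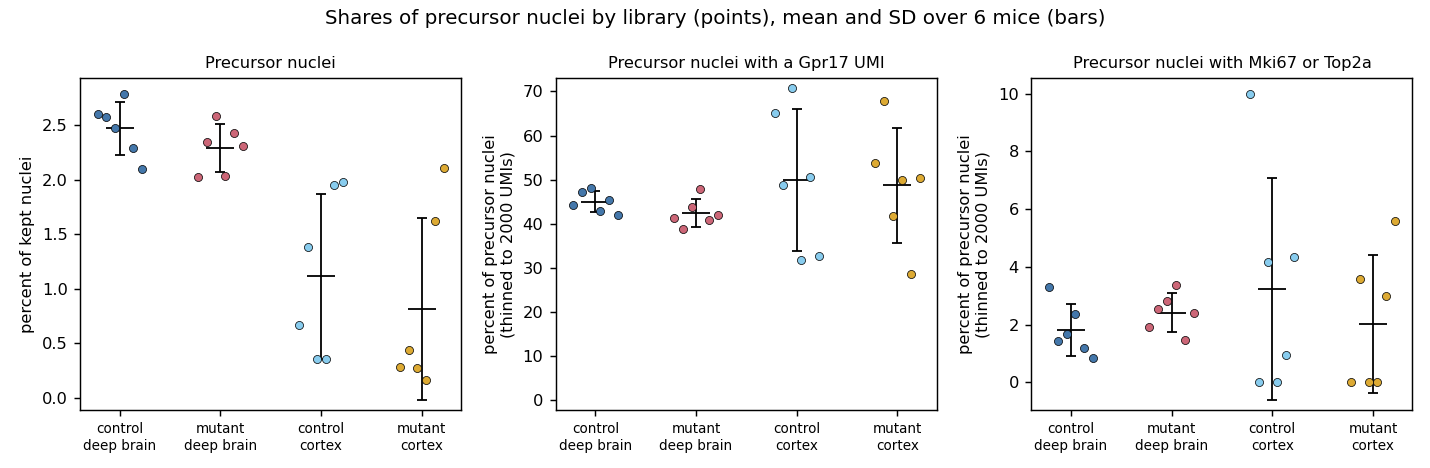
Percent of kept nuclei that are precursors (left), percent of precursor nuclei with a *Gpr17* UMI (middle) and percent with a *Mki67* or *Top2a* UMI (right), the last pair after thinning to 2000 UMIs, where each point is a library and bars give mean and SD over 6 mice. Control and mutant points overlap in each panel and region, and cortex points scatter more widely, with precursor shares from 0.159% to 2.11%.

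Dividing and differentiating precursors were counted from transcripts. *Mki67* and *Top2a* are made in cells passing through the cell cycle. After thinning to 2000 UMIs, which kept 2917 deep brain and 757 cortex precursor nuclei, at least 1 UMI of either was found in 61 deep brain precursors, or 2.09%, against 0.0969% of mature oligodendrocytes, 0.136% of neurons and 0.0777% of astrocytes. The median depths of these classes before thinning differed, with 2402 to 3363 UMIs per library in mature oligodendrocytes and 10436 to 14642 in neurons. The precursor share was above that of each of the other classes. In the deep brain it ran from 0.847% through a median of 1.56% to 3.31% in controls and from 1.45% through 2.47% to 3.36% in mutants. The means were 1.80% ± 0.895 and 2.41% ± 0.669 (exact permutation p = 0.203, adjusted p = 0.407). In the cortex the means were 3.24% ± 3.85 and 2.02% ± 2.38 (exact permutation p = 0.556, adjusted p = 0.668). There, 2 control and 3 mutant libraries had none, and with 12 to 39 precursor nuclei in those libraries a count of 0 allows a share of 7.69% to 25%. Without thinning, the mutant minus control difference was 1.22 percentage points in the deep brain and -1.38 in the cortex (exact permutation p = 0.115 and 0.556). With a higher threshold of 10 UMIs for choosing nuclei the deep brain difference was 0.280 (exact permutation p = 0.623).

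*Gpr17* UMIs were found in 43.8% of the thinned deep brain precursors, against 0.737% of mature oligodendrocytes, 0.154% of neurons and 0.518% of astrocytes. By library the share ran from 41.9% through 44.8% to 48.1% in deep brain controls and from 38.8% through 41.7% to 47.9% in mutants. The means of 45.0% ± 2.43 and 42.5% ± 3.11 did not differ beyond this spread (exact permutation p = 0.149, adjusted p = 0.407). In the cortex they were 49.9% ± 16.1 and 48.7% ± 13.1 (exact permutation p = 0.870, adjusted p = 0.870). Without thinning the differences were -5.06 and -6.57 percentage points (exact permutation p = 0.130 and 0.372). With the higher threshold of 10 UMIs for choosing nuclei the deep brain difference was -0.662 (exact permutation p = 0.740). The cortex difference turned positive in 4 of 12 fits without 1 mouse. Between regions, deep brain minus cortex was -4.95 percentage points in controls and -6.25 in mutants for *Gpr17* (exact permutation p = 0.406 and 0.375, adjusted p = 0.4875 for both), and -1.44 and 0.389 for *Mki67* or *Top2a* (exact permutation p = 0.406 and 0.6875, adjusted p = 0.4875 and 0.6875). Leaving out 1 mouse moved the *Gpr17* difference from -8.17 to -1.40 in controls and from -9.98 to -1.69 in mutants. For *Mki67* or *Top2a* in controls it ran from -2.20 to -0.389. The thinned shares rest on 1 random draw per nucleus. Over all draws, given in the closing section, the *Gpr17* difference in controls was larger.

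Precursor counts were then summed per library and tested gene by gene with edgeR's quasi-likelihood test, at a Benjamini-Hochberg adjusted p below 0.05. In the deep brain 4 of 10745 genes differed between genotypes, or 0.0372% of those tested, with *Ddx60* and *Mctp1* higher (0.0186%) and *Scel* and *Cdk6* lower (0.0186%) in mutants. At an unadjusted p below 0.05 there were 610 genes, or 5.68%. None of the 4 is a marker of the precursors, and *Lhfpl3* and *Olig1* were among the genes that did not pass.

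*Scel* encodes sciellin, known as a precursor of the cornified envelope of skin cells, and lies on chromosome 14 from 103513342 to 103612797 (GRCm38, plus strand). Its level in deep brain precursors ran from 78.9 through a median of 94.7 to 131 CPM in controls and from 38.3 through 53.7 to 57.7 in mutants. No mutant library reached the lowest control. The means were 101 ± 19.6 and 51.1 ± 7.20 CPM (SD, n = 6 each), and the transcript fell by 0.99 on the log2 scale (SE 0.128, edgeR adjusted p = 0.000117).

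*Ddx60* encodes a helicase that is induced by interferon and acts with the RNA sensor RIG-I. It lies on chromosome 8 from 61928087 to 62038244 (plus strand). It ran from 6.15 through 7.90 to 10.8 CPM in controls and from 16.7 through 25 to 37.2 in mutants. Again the groups did not overlap. The means were 8.31 ± 1.64 and 25.2 ± 8.08 CPM, a rise of 1.59 on the log2 scale (SE 0.227, edgeR adjusted p = 0.000163). Control libraries held 8 to 13 UMIs of *Ddx60* each and mutant libraries 20 to 47. *Ddx60* passed the filter on low counts through the mutants, where it is high, so these values are given as a description.

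*Cdk6*, on chromosome 5 from 3341485 to 3531008 (plus strand), encodes the kinase that pairs with D-type cyclins to start the cell cycle. It ran from 16.9 through 23.5 to 35.4 CPM in controls and from 5.62 through 8.20 to 11.9 in mutants. Every mutant library was below every control library. Its means of 24.5 ± 6.59 and 8.61 ± 2.21 CPM differed by -1.51 on the log2 scale (SE 0.220, edgeR adjusted p = 0.000183). Mutant libraries held 6 to 13 UMIs of *Cdk6* each and control libraries 18 to 46. *Cdk6* passed the filter on low counts through the controls, where it is high, so its values too are given as a description. *Mctp1*, on chromosome 13 from 76384535 to 77031810 (plus strand), encodes a calcium-binding membrane protein. It ran from 43.9 through 57.1 to 69.8 CPM in controls and from 77.0 through 87.4 to 138 in mutants. The means were 57.1 ± 9.53 and 93.8 ± 22.0 CPM, 0.71 on the log2 scale (SE 0.129, edgeR adjusted p = 0.0143). The *Mctp1* call was lost in 8 of 22 alternative settings, among them the fit without control mouse 1, 2 or 6 or mutant mouse 2 or 3. Of the 10745 genes tested, 23 had control and mutant libraries that did not overlap, or 0.214%.

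**Figure D3:**
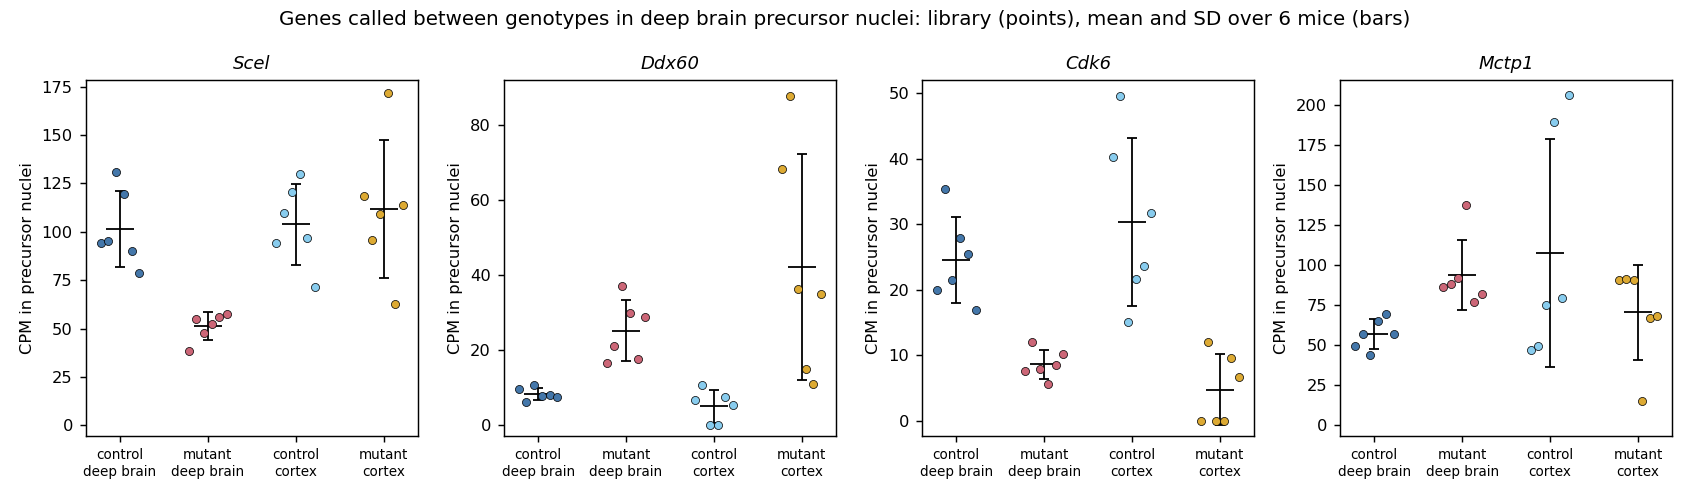
CPM of *Scel*, *Ddx60*, *Cdk6* and *Mctp1* in precursor nuclei, where each point is a library, bars give mean and SD over 6 mice and the groups are control and mutant libraries of each region. In deep brain the control and mutant points of each gene do not overlap, and in cortex this holds for *Ddx60* and *Cdk6*, where the *Cdk6* means are 30.3 and 4.70 CPM.

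The cortex libraries of the same mice gave values of these 4 genes that the deep brain test had not used. *Ddx60* ran from 0 through 6.01 to 10.6 CPM in control and from 10.9 through 35.6 to 87.6 in mutant cortex precursors, with 13 and 77 UMIs in all. The means were 5.03 ± 4.26 and 42.2 ± 30.2 CPM (exact permutation p = 0.00216, the smallest that 6 against 6 can give). *Cdk6* ran from 15.1 through 27.7 to 49.5 CPM in controls and from 0 through 3.35 to 11.9 in mutants, with 61 and 15 UMIs. The means were 30.3 ± 12.8 and 4.70 ± 5.41 CPM (exact permutation p = 0.00216). Neither gene overlapped between genotypes, while 27 of the 10745 genes tested in the deep brain, or 0.251%, did not overlap in the cortex. *Scel* stood at 104 ± 21.0 CPM in control and 112 ± 35.6 in mutant cortex precursors (exact permutation p = 0.667), and *Mctp1* at 108 ± 71.2 and 70.6 ± 29.6 (exact permutation p = 0.310). The p-values of these 4 tests of cortex levels are given unadjusted, since the genes were chosen by their deep brain calls. Every mouse is in both regions, so this is no test in other animals. With 2 to 90 UMIs per library for *Scel* and *Mctp1*, and 0 to 26 for *Ddx60* and *Cdk6*, single cortex libraries were imprecise.

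Levels in other nuclei of the same libraries were set beside these differences, without a test. *Ddx60* in deep brain astrocytes had mean levels of 6.46 CPM in controls and 21.5 in mutants, in mature oligodendrocytes 1.20 and 5.20, and in neurons 0.37 and 0.34. *Cdk6* over all kept nuclei was at 10.8 CPM in controls and 10.7 in mutants, and in neurons at 9.58 and 8.77. *Scel* over all kept nuclei was at 5.63 and 5.00 CPM, in astrocytes at 21.1 and 14.5 and in neurons at 2.85 and 3.21. *Mctp1* in neurons was at 469 and 607 CPM, far above the precursors. In controls *Scel* and *Cdk6* thus stood higher in precursors than in neurons and over all kept nuclei, and *Mctp1* lower than in neurons. The part of neuronal RNA in the *Mctp1* difference was not tested.

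No member of the gene lists of precursor biology passed the genotype test in the deep brain, where 0.0372% of all genes did, so that the 0 says nothing particular about lists of this size. Each list is given by its median log2 difference, mutant minus control, beside a median of 0.000578 over all 10745 genes tested. The 26 identity genes had a median of -0.0125, with 13 positive and 13 negative. *Sox10*, a transcription factor gene of the lineage, was at 268 ± 17.3 CPM in controls and 231 ± 21.3 in mutants (edgeR adjusted p = 0.728). Of the PDGF ligands and receptors 3 were high enough to test, and *Pdgfa*, the ligand gene for PDGFRA, was at 8.58 ± 2.44 and 10.6 ± 3.84 CPM (edgeR adjusted p = 0.958). The 18 genes read as targets of receptor tyrosine kinases had a median of -0.111, with 14 negative. Among these *Etv4*, a transcription factor gene, was at 239 ± 29.7 and 207 ± 14.8 CPM (edgeR adjusted p = 0.776). The 17 commitment genes had a median of -0.0514 and the 13 myelin genes -0.00296. The 16 cell cycle genes that were tested had a median of 0.230 with 14 positive. *Cdk6*, called lower in mutants, is not among them. *Tyms*, which encodes the enzyme that makes thymidylate, was at 9.70 ± 1.68 and 13.4 ± 3.6 CPM (edgeR adjusted p = 0.881). The 15 other growth factor receptors had a median of -0.0521 with 11 negative, and the 39 channel and receptor genes 0.0389 with 24 positive.

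Among the 16 tested genes of Notch and Wnt signalling 12 were negative, with a median of -0.131. The 20 signals between precursors and vessels had a median of -0.0515. In this list *Vegfa*, the main growth factor gene for endothelium, was at 155 ± 34.4 CPM in controls and 258 ± 88.3 in mutants (log2 difference 0.76, SE 0.234, edgeR adjusted p = 0.690). *Wnt7a* and *Wnt7b*, ligand genes by which precursors act on brain endothelium, were at 33.7 ± 2.57 and 24.6 ± 8.03 CPM and at 32.7 ± 3.72 and 24.5 ± 5.51 CPM (edgeR adjusted p = 0.705 and 0.716). Of 15 immune response genes tested, 12 were positive, with a median of 0.197. *Rnf213*, an interferon-induced gene, was at 23.6 ± 1.95 and 32.0 ± 8.43 CPM (edgeR adjusted p = 0.690). The phosphate exporter gene *Xpr1*, one of the genes of familial brain calcification, was at 226 ± 16.0 and 214 ± 16.3 CPM (edgeR adjusted p = 0.979), and the 9 tested genes of phosphate handling and calcification had a median of 0.0364. The 15 genes of hypoxia and glycolysis had a median of 0.0329, the 28 of matrix and adhesion -0.00319, the 11 of regional patterning -0.00943 and the 12 of immediate early and stress responses -0.104, with 10 of the last negative. Markers of neurons, 13 of them tested, had a median of 0.180 with 10 positive, and those of astrocytes, 8 of them, 0.0698. A single microglial gene and a single choroid plexus gene, and no endothelial, mural or fibroblast gene, were high enough to test.

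The 12 tested transcripts of the mitochondrial genome all had positive log2 differences, with a median of 0.467, and 6 of them had an unadjusted p below 0.05, beside 5.68% of all genes tested, although none passed after adjustment. The summed level of the 13 listed mitochondrial genes ran from 731 through 1170 to 1385 CPM in control and from 1065 through 1379 to 2168 in mutant precursors, which overlap. Over all kept deep brain nuclei the same sum was 1222 ± 384 CPM in controls and 1425 ± 540 in mutants. In nuclei such transcripts come from outside the nucleus, so this list also reads the residue of cytoplasm, whose part in the genotype values was not tested.

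In the cortex 4572 genes were high enough to test, and edgeR called 0, or 0.00%, with 241 at an unadjusted p below 0.05, or 5.27%. DESeq2 called 2. The smallest adjusted p belonged to *Dscaml1*, a cell adhesion gene chosen here after its value was seen, at 765 ± 81.6 CPM in controls and 1087 ± 92.8 in mutants (log2 difference 0.52, SE 0.103, edgeR adjusted p = 0.0800). *Ddx60* and *Cdk6* were too low in the cortex to enter this test.

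More genes of the precursors were called between regions than between genotypes. In control mice 327 of 10236 genes, or 3.19%, differed between deep brain and cortex with the mouse as a block, of which 131 (1.28%) were higher in the deep brain and 196 (1.91%) in the cortex. In mutant mice 297 of 9753 genes, or 3.05%, differed, with 157 (1.61%) higher in the deep brain and 140 (1.44%) in the cortex. The control and the mutant comparison share no library. Of the genes higher in the deep brain 67 were called in both, or 51.1% of those in controls and 42.7% of those in mutants. Of the genes higher in the cortex 61 were called in both, or 31.1% and 43.6%. Of the 128 control calls for the deep brain that were tested in mutants 125 had the same sign, and of the 184 for the cortex 166 did. A single gene, *Rasgrf2*, was called in opposite directions. The scatter of regional differences shows the genes along the diagonal.

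**Figure D4:**
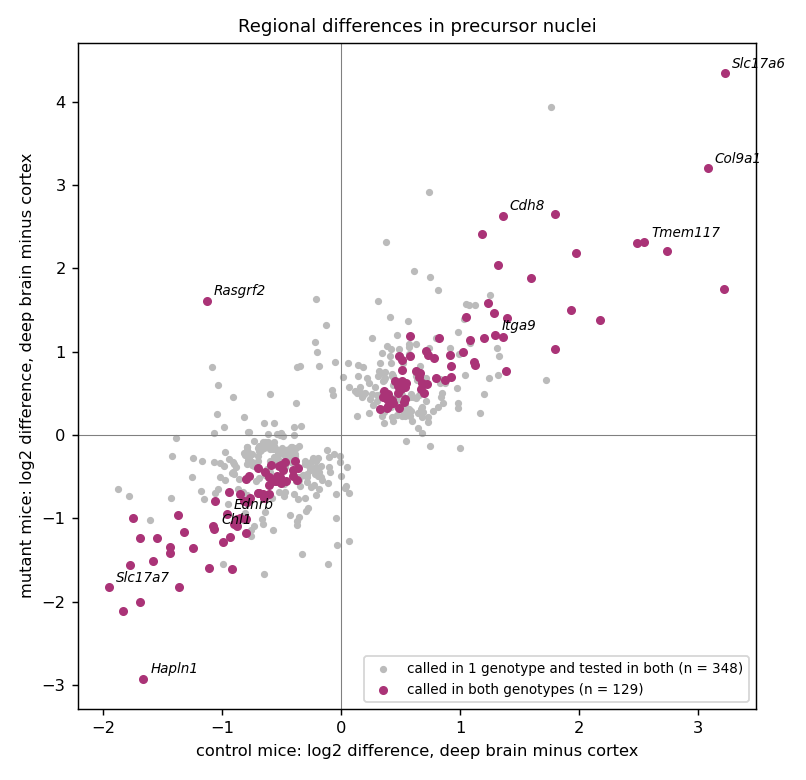
Log2 difference deep brain minus cortex in precursors of control mice (horizontal axis) against mutant mice (vertical axis), for 129 genes called in both genotypes (purple) and 348 called in 1 genotype and tested in both (grey). The purple points lie at the lower left and upper right, apart from *Rasgrf2* in the upper left.

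Receptors and adhesion molecules were among the regional genes with the smallest p. *Itga9*, which encodes an integrin subunit that binds tenascin, ran from 148 through 243 to 273 CPM in the cortex and from 408 through 581 to 707 in the deep brain of controls, without overlap. Its regional log2 difference was 1.29 (SE 0.109, edgeR adjusted p = 7.91e-12) in controls and 1.20 (SE 0.105, adjusted p = 4.77e-12) in mutants. *Itga9* was at 17.9 CPM in neurons, 3.26 in astrocytes and 3.34 in mature oligodendrocytes of the control deep brain, and at 328 in the committed precursors pooled over all deep brain libraries. *Chl1*, a gene of the L1 family of cell adhesion molecules, went the other way, from 750 through 794 to 853 CPM in the cortex and from 268 through 370 to 484 in the deep brain. It was lower in the deep brain by a log2 difference of -1.07 in controls (SE 0.102, edgeR adjusted p = 3.2e-10) and -1.14 in mutants. *Ednrb*, the gene of the endothelin receptor type B, ran from 406 through 452 to 638 CPM in control cortex and from 198 through 247 to 302 in control deep brain. Its log2 difference was -0.96 in controls and -0.95 in mutants. These 3 genes kept their call in all 15 alternative settings that were run in controls.

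*Tmem117*, a membrane protein gene, ran from 6.72 through 25.6 to 75.5 CPM in control cortex and from 142 through 160 to 237 in control deep brain, again without overlap. The log2 difference was 2.54 in controls (SE 0.186, edgeR adjusted p = 9.98e-14) and 2.31 in mutants (SE 0.165, adjusted p = 3.78e-15). *Tmem117* had 1 to 26 UMIs in each control cortex library. In controls it passed the filter on low counts through the deep brain, where it is high, so its control values are given as a description. Mature oligodendrocytes had more of *Tmem117* than precursors, with 398 CPM in control deep brain and 193 in control cortex, and the part of their RNA in the precursor difference was not tested. *Frmd4a*, which encodes a scaffold protein of cell polarity, was at 152 ± 44.3 CPM in cortex and 371 ± 58.9 in deep brain of controls and at 138 ± 49.8 and 452 ± 78.2 in mutants. Neurons held 1388 CPM of it in control deep brain and 943 in control cortex, and astrocytes 1583 and 2458, and their part in the precursor difference was not tested. Both genes kept their call in all 15 settings in either genotype. *Angpt1*, the gene of the vessel-stabilising ligand angiopoietin-1, ran from 2.65 through 8.95 to 26.9 CPM in control cortex and from 25.4 through 62.2 to 165 in control deep brain. The regional ranges of *Angpt1* overlapped slightly, and its log2 difference was 2.74 in controls (SE 0.276, edgeR adjusted p = 1.57e-09) and 2.21 in mutants (SE 0.287, adjusted p = 2.43e-07). *Angpt1* had 1 to 5 UMIs in each control cortex library and 0 to 9 in each mutant one. It passed the filter on low counts through the deep brain, where it is high, so these values are given as a description. In controls the call was lost when the mouse was not used as a block (adjusted p = 0.113). Astrocytes held more of it, at 159 CPM in control deep brain and 73.9 in control cortex, and their part was not tested.

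**Figure D5:**
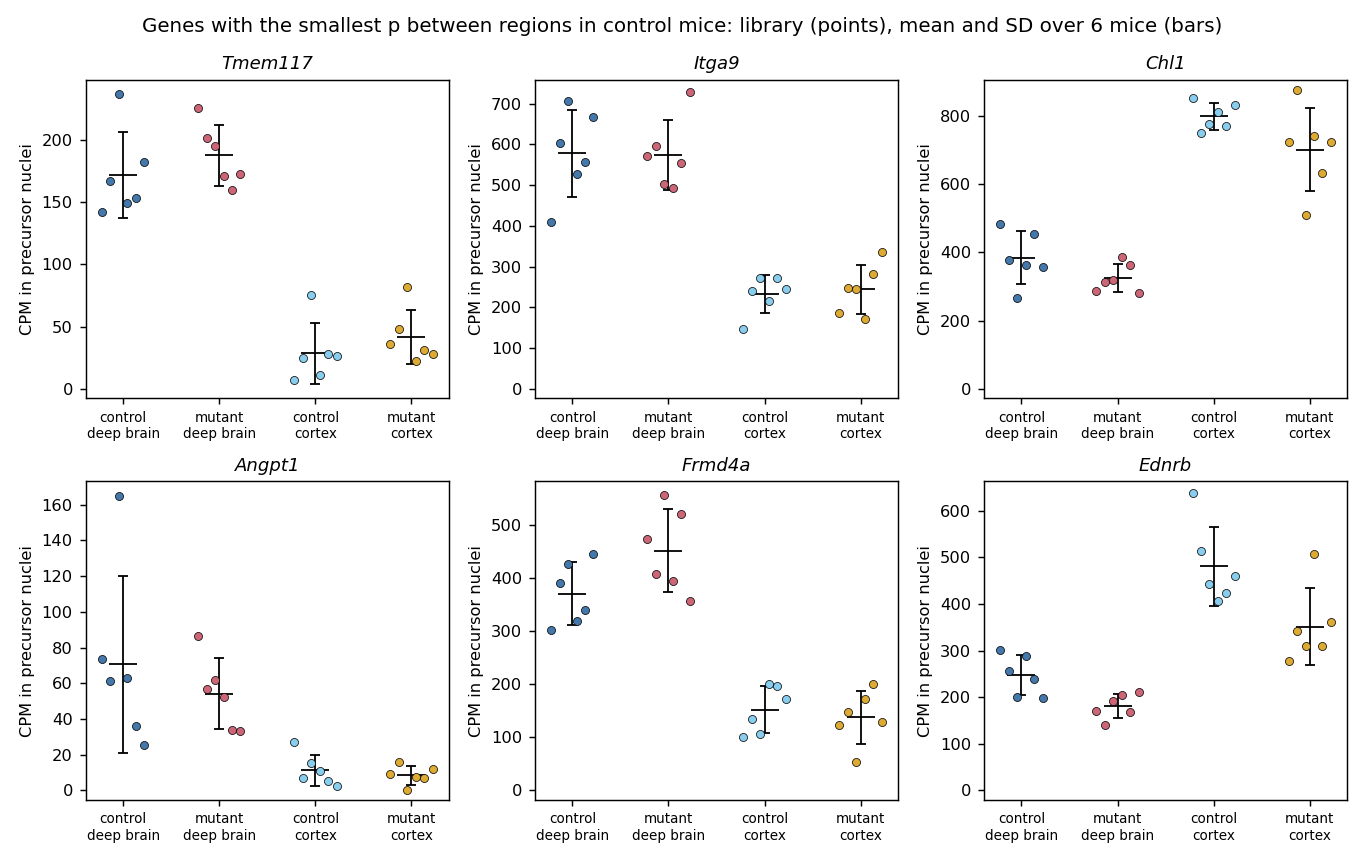
CPM of *Tmem117*, *Itga9*, *Chl1*, *Angpt1*, *Frmd4a* and *Ednrb* in precursor nuclei by group, where each point is a library and bars give mean and SD over 6 mice. *Tmem117*, *Itga9*, *Angpt1* and *Frmd4a* sit higher in both deep brain groups, and *Chl1* and *Ednrb* higher in both cortex groups, with *Chl1* means of 799 CPM in control cortex and 384 in control deep brain.

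The matrix and adhesion list, 28 of whose genes were tested, held 7 genes higher in the deep brain and 4 higher in the cortex in controls, beside 1.28% and 1.91% of all genes tested, and 5 and 4 in mutants, beside 1.61% and 1.44%. Its median log2 difference was -0.0119 in controls and -0.118 in mutants, beside 0.00156 and 0.00206 over all genes. *Col27a1*, a fibrillar collagen gene, was at 12.5 ± 10.1 CPM in cortex and 55.9 ± 14.9 in deep brain of controls (log2 difference 1.93, edgeR adjusted p = 2.34e-06) and was called in mutants too. *Col9a1*, another collagen gene, was at 4.48 ± 5.76 and 31.8 ± 7.77 CPM, with 7 UMIs in all 6 control cortex libraries, so that it passed the filter on low counts through the deep brain and nothing is read from its place in the count. *Col27a1*, with 0 to 20 UMIs in each control cortex library, also passed the filter through the deep brain. *Sparc*, with 1 to 15 UMIs in each control and 0 to 10 in each mutant cortex library, did so too. *Hapln1*, with 6 to 20 UMIs in each control and 4 to 14 in each mutant deep brain library, passed it mainly through the cortex. No share of the list is therefore read from its counts of called genes, and the values of these genes are given as a description. The secreted matrix protein gene *Sparc* was at 19.0 ± 9.72 and 65.4 ± 17.0 CPM in controls and 9.39 ± 5.31 and 67.3 ± 13.5 in mutants. *Sparc* was higher still in astrocytes, with 439 CPM in control deep brain and 113 in control cortex, and their part was not tested. *Robo1*, a receptor gene for the guidance cue Slit, was at 1139 CPM in control deep brain and 786 in control cortex (log2 difference 0.53, edgeR adjusted p = 0.000240). On the cortical side *Hapln1*, which links hyaluronan to proteoglycans, was at 31.1 ± 14.9 CPM in cortex and 9.62 ± 4.02 in deep brain of controls, and at 53.3 ± 23.3 and 6.73 ± 3.30 in mutants, called in both. *Bcan*, the gene of the proteoglycan brevican, was at 932 ± 203 and 711 ± 47.8 CPM in controls (log2 difference -0.37, edgeR adjusted p = 0.0238), a call lost in 6 of 15 settings in controls, among them the fits without mouse 1, 2, 3 or 5, and in 3 of 15 in mutants. In both genotypes the limit of 30 precursor nuclei per library was among the settings that lost it.

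Of the 26 identity genes 5 were higher in the cortex and 0 in the deep brain in each genotype, beside 1.91% of all genes higher in the cortex of controls and 1.44% of mutants, with a median log2 difference of -0.0943 in controls and -0.126 in mutants. *Matn4*, a matrilin gene, was called in both, at 435 ± 109 CPM in cortex and 298 ± 20.5 in deep brain of controls (log2 difference -0.51, edgeR adjusted p = 0.00215), and the call was lost in 4 of 15 settings in controls, among them the fit without mouse 2, and in 3 of 15 in mutants. *Gpr17* was called in both as well, at 494 ± 161 and 332 ± 40.6 CPM in controls (adjusted p = 0.00203) and 440 ± 136 and 320 ± 31.6 in mutants (adjusted p = 0.0498), but 3 of 15 settings lost it in controls, among them the fit without mouse 2, and 13 of 15 in mutants. *Olig1*, at 420 ± 162 and 278 ± 25.03 CPM in controls (edgeR adjusted p = 0.0235), was lost in 8 of 15 settings, among them the fits without mouse 1, 2 or 3. The limit of 30 precursor nuclei per library lost *Olig1* and *Matn4* in controls and *Matn4* and *Gpr17* in mutants, while *Gpr17* kept its call in controls. *Olig1* was at 498 to 605 CPM in control cortex of mice 1 to 3 and 254 to 303 in mice 4 to 6, against 237 to 303 in control deep brain. For *Gpr17* these ranges were 564 to 692, 346.5 to 364.5 and 275 to 384, and for *Matn4* 457 to 577, 307 to 412 and 263 to 323. No identity gene was called higher in the deep brain. *Gpr17* was counted here although its level was higher in committed precursors than in precursors. Of 17 commitment genes tested, 3 were higher in the deep brain and 1 in the cortex in controls, beside 1.28% and 1.91% of all genes. In mutants it was 1 and 1, beside 1.61% and 1.44%. Their median log2 difference was 0.0629 in controls and -0.147 in mutants.

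The myelin genes went the other way from the identity genes, with 4 of 12 higher in the deep brain and 0 in the cortex in controls and 2 of 11 and 0 in mutants. Over all genes tested 1.28% and 1.61% were higher in the deep brain. Their median log2 difference was 0.426 in controls and 0.290 in mutants. *Trf*, the gene of the iron carrier transferrin, was at 31.3 ± 10.4 CPM in cortex and 79.7 ± 18.9 in deep brain of controls and 50.7 ± 30.8 and 87.4 ± 19.5 in mutants, called in both. The call was lost after thinning in controls, and under DESeq2 and without mouse 1 or 6 in mutants. Mature oligodendrocytes held 2459 CPM of *Trf* in control deep brain, and they took a larger share of the deep brain nuclei, with 21120 of 124958 against 4865 of 79967. The part of their RNA in the regional difference was not tested.

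Of 47 listed transcription factor genes that pattern the embryonic brain, 10 were high enough to test in controls and 8 in mutants. *Pax3*, a transcription factor gene of the dorsal neural tube, ran from 17.1 through 37.2 to 52.2 CPM in control deep brain, while 5 of 6 control cortex libraries had 0 and the other 10.6, with 3 UMIs in all (edgeR adjusted p = 4.78e-08). Mutants had 8.42 to 35.4 CPM in the deep brain, and 2 UMIs in all of the cortex, too few for *Pax3* to enter their test. *Irx2*, a homeobox gene of the posterior brain, was at 5.78 ± 7.5 CPM in cortex and 26.9 ± 5.33 in deep brain of controls and was called in both genotypes. *Foxp2* was at 102 ± 32.9 and 169 ± 19.2 CPM in controls, and was called in both genotypes too. *Pax3* and *Irx2*, the latter with 10 UMIs in all 6 control cortex libraries, passed the filter on low counts through the deep brain, where they are high, so no share of the list is read from these calls.

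Of 39 channel and receptor genes 2 were higher in the deep brain and 4 in the cortex in controls, beside 1.28% and 1.91% of all genes tested, and 3 and 3 in mutants, beside 1.61% and 1.44%. *Gria4* was higher in the deep brain in both genotypes, at 986 ± 264 CPM in cortex and 1419 ± 262 in deep brain of controls (log2 difference 0.55, edgeR adjusted p = 0.000144), a call lost in controls without the mouse as a block (adjusted p = 0.0651). *Grm5*, a metabotropic glutamate receptor gene, was called in the same direction in both genotypes. *Cacna2d1*, a calcium channel subunit gene, was higher in the cortex, at 379 ± 70.8 and 218 ± 34.3 CPM in controls and 428 ± 50.5 and 245 ± 31.4 in mutants. Of 11 cell cycle genes tested 0 were called in either genotype. Among 12 tested mitochondrial transcripts all were negative in controls, with a median of -0.473 and 1 called, and among 13 in mutants all were negative as well, with a median of -0.284 and 1 called. The call in controls, mt-Nd5, was lost in 12 of 15 settings, and that in mutants, mt-Co1, in 6 of 15.

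The regional calls included genes known from neurons. *Slc17a7*, the vesicular glutamate transporter gene of cortical neurons, was at 51.3 ± 21.4 CPM in cortex and 13.0 ± 7.75 in deep brain precursors of controls, and *Slc17a6*, that of thalamic and brainstem neurons, at 2.41 ± 2.02 and 26.5 ± 12.2. With 0 to 3 UMIs in each control cortex library, *Slc17a6* passed the filter on low counts through the deep brain, and nothing is read from its call. *Slc17a7*, with 6 to 36 UMIs in each control deep brain library, passed it mainly through the cortex, and nothing is read from its call either. In neurons *Slc17a7* was at 251 CPM in control cortex and 138 in control deep brain, and *Slc17a6* at 24.2 and 123. Mature oligodendrocytes had 88.8 and 21.9 CPM of *Slc17a7* and 8.15 and 43.1 of *Slc17a6*. Both genes thus stood in the same regional order in precursors, mature oligodendrocytes and neurons. Among the genes called higher in the deep brain, 59 of 131 in controls, or 45.0%, had a lower level in deep brain precursors than over all kept deep brain nuclei, and 104 of 157 in mutants, or 66.2%. On the cortical side it was 75 of 196, or 38.3%, and 35 of 140, or 25%. Above neurons, astrocytes and mature oligodendrocytes alike stood 46 (35.1%) and 35 (22.3%) of the deep brain genes and 83 (42.3%) and 64 (45.7%) of the cortex genes. Over all kept nuclei the regional order was the same for 108 of 131 and 124 of 157 deep brain genes. For cortex genes it was the same for 151 of 196 and 67 of 140. The matching shares over all genes tested are not given here, so these counts say nothing particular about called genes. The part of RNA from other cells in these regional calls was not tested.

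The test of whether region acted differently in the genotypes called 1 of 10969 genes, or 0.00912%, with 611 at an unadjusted p below 0.05, or 5.57%. *Rasgrf2*, on chromosome 13 from 91880400 to 92131656 (minus strand), encodes an exchange factor for Ras and Rac. In controls it ran from 19.4 through 30.03 to 48.7 CPM in the cortex and from 9.64 through 11.0 to 20.1 in the deep brain. In mutants it ran from 0 through 6.26 to 14.9 CPM in the cortex and from 10.2 through 21.9 to 28.3 in the deep brain. The control cortex libraries were thus above all mutant cortex libraries, and the deep brain groups overlapped. The deep brain minus cortex difference was -1.13 on the log2 scale in controls and 1.61 in mutants, and these differed by 2.72 (SE 0.507, edgeR adjusted p = 0.00828). The mutant cortex value rests on 14 UMIs in 6 libraries. Neurons held between 125 and 142 CPM of *Rasgrf2* in all 4 groups. The call was lost under DESeq2, the stricter rule for nuclei, the higher threshold of 10 UMIs, the limit of 30 nuclei per library and without mutant mouse 5.

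*Scel* was also read by region. The difference between regions missed the threshold in controls (log2 difference -0.04, SE 0.138, edgeR adjusted p = 0.945), and it was lower in the deep brain of mutants with a log2 difference of -1.0 (SE 0.173, edgeR adjusted p = 8.59e-05). The interaction for *Scel* was -0.96 (SE 0.216, edgeR adjusted p = 0.113) and missed the threshold. The genotype difference in *Scel* was therefore called in the deep brain, without a called difference between the regions in its size.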

How the data were processed

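Single-nucleus RNA-seq libraries of the deep brain and cortex of 12 mice were deposited as matrices of counts, each value being the number of UMIs of a gene in a nucleus, not normalized. According to the submitters' processing notes and the labels, the authors made them with bcl2fastq 2.20.0.422 and Cell Ranger 5.0.1 on mm10, from 10x Genomics 5' libraries with intronic reads counted. Reads within introns and pre-mRNA therefore enter every level, and transcripts of overlapping genes may not be separable.

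Nuclei with more than 500 and fewer than 7000 genes and under 20% mitochondrial UMIs were kept. Precursors were chosen by the UMI rule given above, and the members and gene lists were chosen with earlier results of these data known. No doublet caller was run. A stricter rule that allowed no UMI of *Rbfox3*, *Mog*, *Mag*, *P2ry12* or *Cldn5* was tried instead. It also limited the summed UMIs of *Slc17a7*, *Slc17a6*, *Gad1* and *Gad2*, as given above. Comparison classes were committed precursors (at least 3 UMIs of *Bmp4* and *Enpp6*), mature oligodendrocytes (at least 4 of *Mog* and *Mag*), neurons (at least 4 of *Rbfox3*) and astrocytes (at least 2 of *Aqp4*).

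Counts were summed over the precursor nuclei of each library, so that the mouse was the replicate. Each library gave 12 to 281 nuclei. CPM is a gene's sum scaled to 1000000 precursor UMIs. Genes were filtered by filterByExpr, scaled by TMM and tested with the robust quasi-likelihood test of edgeR 4.0.16 in R 4.3.3 at a Benjamini-Hochberg adjusted p below 0.05, with the mouse as a block between regions. Permutation tests of shares were exact, two-sided and over mice. Exact 95% intervals (scipy 1.17.1) and the limit that a count of 0 allows, 3 counts, cover counting error only. The fit was tested on simulated counts. Gene positions are those of GRCm38, found for 32158 of 32288 genes.

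Genes were named by rule: all called genes of a comparison with 25 or fewer calls, otherwise the 12 highest and 12 lowest by log2 fold change among called genes with a mean of at least 20 CPM, plus up to 4 genes of each list with the smallest p and the marker genes. Alternatives were DESeq2 1.42.0, no filter on low counts, the stricter rule, thresholds of 4 and 10 UMIs, thinning to 2000 UMIs, libraries with at least 30 precursor nuclei, blocks by replicate number or age, and each mouse left out. Some genes are not reported here.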

Additional observations from a re-analysis of the deposited data

Results flagged for a closer look

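Of 68 groups of 6 libraries 5 had a library far from the other 5, by Dixon's test. Chance alone marks about 1 in 20 groups. *Cspg4*, which belongs to the rule for nuclei, was at 282 CPM in the cortex of control mouse 4, whereas the other control cortex libraries were at 529 to 640. *Mctp1* was at 138 CPM in the deep brain of mutant mouse 4, against 77.0 to 91.8 in the other mutants. *Angpt1* was at 165 CPM in the deep brain of control mouse 3, against 25.4 to 73.4. *Tmem117* was at 75.5 CPM in the cortex of control mouse 3, against 6.72 to 28.0. *Cdh8*, a cadherin gene, was at 250 CPM in the deep brain of mutant mouse 3, against 142 to 175.

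*Rasgrf2* differed in its regional effect between genotypes, by 2.72 on the log2 scale in the interaction test of edgeR (adjusted p = 0.00828). It was lower in the deep brain than in the cortex of controls and higher in the deep brain than in the cortex of mutants.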

How the results depend on the processing

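Between genotypes in the deep brain, 53 genes were called with no filter on low counts, 29 with a replicate block and 27 with a block by age, against 4 as reported, and leaving out 1 mouse gave 3 to 15, with 15 without mutant mouse 6 and 7 without mutant mouse 5. In the cortex, 0 genes as reported became 2 under DESeq2, 10 with no filter, 2 with only libraries of at least 30 precursor nuclei, 3 with a replicate block and 2 with a block by age, and 0 in each fit without 1 mouse. Replicate numbers were not taken to pair the genotypes. The labels give mice 1 to 4 the same age in both genotypes. Control mouse 5 has the age of mutant mouse 6, and control mouse 6 that of mutant mouse 5. Every mutant thus has a control of the same age, matched in the block by age. The labels give no shared litter or batch, and not every pair of same-numbered libraries had deviations correlated above 0.1. The correlations were -0.0786 to 0.299 in the deep brain and 0.0491 to 0.344 in the cortex. Of these, 4 of 6 were above 0.1 in the deep brain and all 6 were positive in the cortex, with the own number best in 3 and 4 of 6. Cortex libraries 1, 3 and 4 were shallow in both genotypes and 5 and 6 in neither. Whether pairing of the mice or depth had a part in the correlations was not tested. With the replicate block the difference in the share of precursors was -0.183 in the deep brain (exact permutation p = 0.375) and -0.301 in the cortex (p = 0.0938).

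The 327 regional calls in controls became 184 under DESeq2, 124 under the stricter rule, 86 after thinning and 152 with libraries of at least 30 nuclei, and 194 to 330 without 1 mouse, with 194 without control mouse 2. The 297 in mutants became 157, 75 and 96 under the first 3 of these, and 183 to 267 without 1 mouse, with 183 without mutant mouse 6. Without the replicate block they were 228 and 241. Thinning and the stricter rule leave fewer UMIs, and for the other settings the cause was not tested. The interaction gave 0 calls under DESeq2, the stricter rule, the threshold of 10 UMIs, thinning and libraries of at least 30 nuclei (at an unadjusted p below 0.05 386, 421, 537, 327 and 578 genes), 12 with no filter, and 1 to 3 without 1 mouse.

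Among the called genes named, *Scel*, *Ddx60* and *Cdk6* kept their call in all alternatives that tested them, and no named gene turned its direction. *Scel* was tested in 22 alternatives, *Ddx60* in 21 and *Cdk6* in 20. Shares in the cortex turned with single libraries. The genotype difference in cycling nuclei was 0.133 percentage points without control mouse 1, as low as -1.93 without another mouse, and -3.71 under the stricter rule. That in *Gpr17* nuclei was 1.78 and 2.95 without control mouse 1 or 3, and 0.178 and 2.80 without mutant mouse 3 or 5, as low as -5.06 without another mouse, and -13.1 under the stricter rule. The regional difference in cycling nuclei of mutants was -0.0953 and -0.205 without mutant mouse 3 or 4 and otherwise up to 1.11. Shares expected over all draws of 2000 UMIs, chosen after seeing the data, kept their directions but not their sizes: the genotype difference in *Gpr17* nuclei of the cortex went from -1.23 to -6.08, the regional one in controls from -4.95 to -11.3 (exact permutation p = 0.406 and 0.0312, unadjusted) and in mutants from -6.25 to -7.35, and the genotype difference in cycling nuclei of the deep brain from 0.610 to 0.989 (exact permutation p = 0.203 and 0.0541, unadjusted). In the cortex 7 of 12 libraries hold 12 to 28 precursor nuclei, which limits the precision of their values.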
